A study of Danio rerio with 1109 samples.

Results

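Cells of the zebrafish trunk that carried messenger RNA of the actinodins *and1* and *and2* are described here. A cell was taken when it had at least 20 raw counts of *and1* and at least 20 of *and2*, and under 20 counts of *cldnb*, a claudin of epithelia. This held for 413 cells (37.2% of all cells, 95% Clopper-Pearson interval 34.4 to 40.2%) and not for 696. That share and its interval pool plates with very unlike shares, given below, and describe none of them. The markers expected in such cells were *and1*, *and2*, *eve1*, *hoxa13a*, *ncana* and *colgalt2b*. The counts show that most of the 413 cells are not set apart from the other cells of their plate. At least 500 counts of both actinodins, a limit set after the counts had been seen, were found in 61 cells. A gap in counts lay below them except on the plate that held 50 of them, where none lay at 500. These 61 cells are called high actinodin cells below, and the remaining members low actinodin cells.

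The study sorted fluorescent cells of embryo trunks at 48 hpf and sequenced each of them by the Smart-seq2 protocol, which reads full-length cDNA without molecular identifiers. Cells of 2 plates (*vegfc* plates 1 and 2) came from embryos of genotype *vegfc:Gal4FF;UAS:GFP;kdrl:mCherry*, in which a *vegfc* driver turns on GFP and *kdrl* marks endothelium with mCherry. Cells of the third, the *pdgfra* plate, came from *pdgfra:mCit* embryos, whose reporter marks fibroblasts. The embryos of both lines carried no mutation or treatment in the labels, trunks had been pooled and dissociated superficially, and no animal, pool or sort gate is given for a cell. A plate is therefore a single sample, line and plate cannot be told apart for the *pdgfra* plate, and no p-value was computed.

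Actinotrichia are rigid fibrils that support the edge of the embryonic fin fold. Their known components in zebrafish are actinodins and collagens, secreted by epidermal cells and later by mesenchymal cells that migrate into the fold. Hox genes of the most posterior group and *eve1* are known for their expression in the tail and in the distal fin, and Msx factors for the fin fold and its regeneration.

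On the *pdgfra* plate, 94.8% of cells met the limit of 20 counts (91.99 to 96.8%) and 19 did not, whereas it was met by 56 cells (15.3%, 11.7 to 19.4%) on *vegfc* plate 1 and 11 cells (2.92%, 1.47 to 5.16%) on *vegfc* plate 2. Cells with immune genes were set beside this, without a check that they lack actinodins. The class took cells with at least 20 counts of the immune genes *spi1b*, *mpx* or *lcp1*, leaving out high actinodin cells. Its cells are called immune cells for short, by these genes alone and without a check of their type. On *vegfc* plate 1 the class took 34.3% of all cells, among them the cell with *cldnb*, *krt4* and *epcam* described at the end. Of these, 19 of 19 met it on the *pdgfra* plate, 20 (15.9%, 9.97 to 23.4%) on *vegfc* plate 1 and 0 of 50 (0 to 7.11%) on *vegfc* plate 2. On *vegfc* plate 1, 4 more cells of the class had 20 counts of both actinodins but also of *cldnb*. Some of the immune cells also had *pdgfra* or *lum*. Of those without both genes, 10 of 10 met it on the *pdgfra* plate, 10 of 81 (12.3%, 6.08 to 21.5%) on *vegfc* plate 1 and 0 of 46 (0 to 7.71%) on *vegfc* plate 2. The median depths of all immune cells were 324350, 335206 and 371464 gene counts, beside 282356, 320230 and 337859 gene counts in the cells taken. Of cells with *pdgfra* or *lum* that were not high actinodin cells, 93.4%, 14.3% and 3.53% met it in the same order of plates. On every plate the share at 20 counts was thus within the interval of the immune cells, and no expression is read from it. The source of these counts was not tested. All intervals of shares treat the cells as independent draws and leave out variation between embryos, pools, sorts and plates. The amplified reads carry no molecular identifier, so counts are not numbers of molecules.

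The median cell of the *pdgfra* plate had 608.5 CPM of *and1* and 628.4 CPM of *and2* (CPM is counts in 1e6 gene counts of a cell), and the 19 immune cells of that plate had medians of 522.7 and 463.4 CPM. On the *vegfc* plates the medians over all cells were 50.6 and 18.7 CPM on plate 1, and 3.16 and 1.56 CPM on plate 2. The lower of both counts left few cells between these levels and the top of the range. On *vegfc* plate 1 the 3 cells just under the limit of 500 had 44, 47 and 53 counts of the lower actinodin, and the 3 just above had 959, 1810 and 2030. On *vegfc* plate 2 the 3 cells below stood at 29, 55.4 and 60.8% of the limit, and the 3 above had 1095, 1821 and 2010 counts. The *pdgfra* plate had no such gap at 500 itself, with 434, 466 and 488 counts just outside and 502, 573 and 606 just inside. There, 74 cells had 200 or more but under 500 counts of the lower actinodin, 5 had 500 or more but under 1000, and 45 had 1000 or more. At the limit of 20 counts, the nearest cells had 19, 19 and 19 counts outside and 20, 20 and 20 inside on *vegfc* plate 1, 13, 15 and 17 outside and 22, 23 and 94 inside on *vegfc* plate 2, and 15, 17 and 17 outside and 20, 23 and 23 inside on the *pdgfra* plate.

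**Figure D1:**
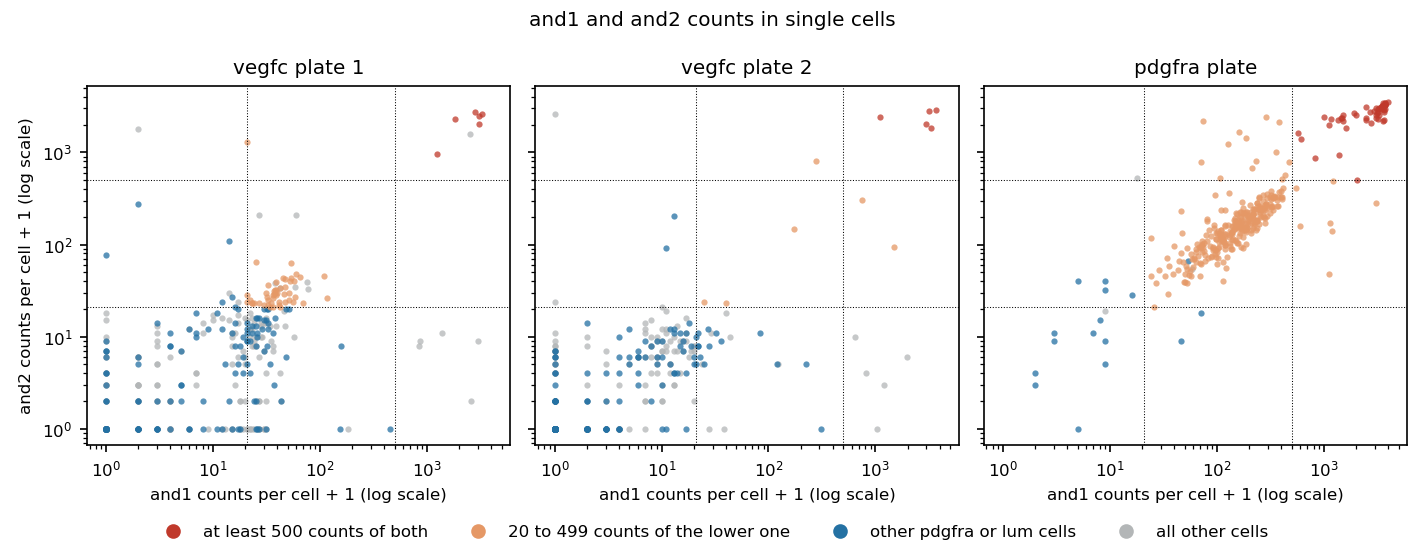
Counts of *and1* (x axis) and *and2* (y axis) in each cell, plus 1, on log scales, with a panel per plate and dotted lines at 20 and 500 counts. High actinodin cells (6, 5 and 50 cells) form the upper right group in each panel. The low actinodin cells of the *pdgfra* plate lie around medians of 153.5 counts of *and1* and 154.5 counts of *and2*.

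The limit of 500 counts was set after the counts had been seen. It kept 6 cells on *vegfc* plate 1 (1.63%, 0.602 to 3.52%), 5 on *vegfc* plate 2 (1.33%, 0.432 to 3.07%) and 50 on the *pdgfra* plate (13.7%, 10.3 to 17.7%). These cells held 51.5%, 61.8% and 68.5% of all *and1* and *and2* counts of their plates. Each of these cells had 111807 to 620978 gene counts (median 332169), against a median of 282356 in the other cells with *pdgfra* or *lum*, and the share of counts on spike-in RNA was 1.37 to 1.84% against 1.61 to 2.11% by plate.

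The actinodin levels themselves chose the cells and are given as a description. In *vegfc* plate 1 the high actinodin cells had 1244 to 3269 counts of *and1* (ENSDARG00000088514; median 2940.5) and 959 to 2765 of *and2* (ENSDARG00000079302; median 2394.5). On *vegfc* plate 2 *and1* had 3665, 3158, 2966, 3280 and 1095 counts and *and2* had 2863, 2799, 2010, 1821 and 2439 counts in the 5 cells. On the *pdgfra* plate the range was 573 to 3954 counts (median 3087.5) for *and1* and 502 to 3499 counts (median 2656.5) for *and2*. Medians in counts were close between plates, but a fixed limit on these same counts had chosen the cells, so this is partly built in. In CPM the medians were 7247, 8508 and 9662 for *and1* on *vegfc* plate 1, *vegfc* plate 2 and the *pdgfra* plate. For *and2* they were 6323, 6458 and 8272 CPM. Both genes together took 0.468 to 4.22% of a cell's gene counts (median 1.68%). The ratio of summed *and1* to *and2* counts was 1.16, 1.19 and 1.04 in *vegfc* plate 1, *vegfc* plate 2 and the *pdgfra* plate, and *and1* had the higher count in 42 of 61 cells. The counts of both genes varied together over the 50 cells of the *pdgfra* plate (Spearman's rho of CPM 0.87, a description over cells of a single plate, which share depth and library).

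The other 4 markers were not part of the limits that chose the cells. A cell was counted as having a gene at 20 raw counts or more. *hoxa13a*, a Hox transcription factor of the tail and fins, was found in 45 of 61 high actinodin cells (73.8%, 60.9 to 84.2%), against 24 of 566 other cells with *pdgfra* or *lum* (4.24%, 2.74 to 6.24%) and 3 immune cells of all plates (1.54%, 0.318 to 4.43%). *eve1*, an Even-skipped homeobox gene, was found in 19 of 61 (31.1%, 19.9 to 44.3%), against 1 of 566 (0.177%) and 0 immune cells, which allows up to 1.54%. *ncana*, a neurocan proteoglycan of the matrix, was found in 28 of 61 (45.9%, 33.1 to 59.2%), against 8 of 566 (1.41%) and 2 immune cells (1.03%). *colgalt2b*, a collagen galactosyltransferase, was found in 58 of 61 (95.1%, 86.3 to 98.97%), against 37 of 566 (6.54%) and 7 immune cells (3.59%). The median depth of the immune cells was 338257 gene counts. All these shares and intervals pool plates that hold unlike parts of each group, and the shares of high actinodin cells by plate follow. The markers were named together with the label from earlier results of these data, so their levels describe the 61 cells and are no independent support of the label.

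By plate, *hoxa13a* was found in 5 of 6, 4 of 5 and 36 of 50 high actinodin cells of *vegfc* plate 1, *vegfc* plate 2 and the *pdgfra* plate, and *colgalt2b* in 6 of 6, 5 of 5 and 47 of 50. *ncana* was found in 4 of 6, 3 of 5 and 21 of 50 cells. *eve1* was found in 3 of 6 and 4 of 5 cells of the *vegfc* plates and in 12 of 50 of the *pdgfra* plate, and its level was also lower there, at 69.9 CPM of summed counts against 621 and 731 CPM on the *vegfc* plates (CPM of counts summed over cells). The level of *hoxa13a* differed less, at 559 CPM on the *pdgfra* plate against 686 and 697 CPM.

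Over all low actinodin cells the same markers were near the levels of the other cells with *pdgfra* or *lum*. Those other cells include low actinodin cells, which are most of them on the *pdgfra* plate, so this likeness is partly built in. *hoxa13a* was found in 16 (4.55%), *eve1* in 1 (0.284%), *ncana* in 3 (0.852%) and *colgalt2b* in 35 (9.94%). Of the 20 genes most raised in high actinodin cells, the median gene was found in 7.43% of the low cells of the *pdgfra* plate, in 4% on *vegfc* plate 1 and in 16.7% on *vegfc* plate 2, against 89, 91.7 and 80% of the high cells of these plates. These genes were chosen by their ratio in the same high cells and had to be found in at least 25% of them on each plate. The gap between high and low cells is therefore partly built in and is given as a description. In cells with *pdgfra* or *lum* and under 20 counts of both actinodins, the median share was 0, 1.63 and 1.41% in the same order of plates. In summed counts these genes had a median of 5.92% of their level in high cells in the low cells of the *pdgfra* plate, where *and1* stood at 7.99% and *and2* at 9.19%. On *vegfc* plate 2 the low cells had 18.2%, and 3 of these 6 cells had 500 or more counts of 1 actinodin.

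These medians cover unlike cells. Of the low actinodin cells, 25 had 500 or more counts of 1 actinodin (1 on *vegfc* plate 1, 3 on *vegfc* plate 2 and 21 on the *pdgfra* plate). Among them *hoxa13a* was found in 9, *colgalt2b* in 13, *vcanb* in 23 and *HPD*, an enzyme of tyrosine breakdown, in 17, while *eve1* and *ncana* were found in 1 each. In the low cells with under 500 counts of both actinodins, *hoxa13a* was found in 7 (2.14%), *ncana* in 2 (0.612%), *colgalt2b* in 22 (6.73%), *vcanb* in 43.4% and *HPD* in 21.7%. For these remaining low cells the shares of the 4 markers were far below those in high actinodin cells and go against the label of fin fold mesenchyme.

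Comparing all 413 cells with the cells that had *pdgfra* or *lum* and under 20 counts of both actinodins, 1.31% of 18529 genes had a log2 ratio of at least 1 in each of the 3 plates, and 72 genes (0.389%) a ratio of -1 or lower. The ratio is that of counts summed over the cells of a plate, in CPM with a pseudocount of 5 CPM. A gene past this limit in every plate is called higher or lower. The comparison group of the *pdgfra* plate held 9 cells, with a median depth of 159037 gene counts, against 282356 gene counts in the cells of the rule. All comparison cells had *pdgfra* or *lum*, but the 413 cells were not chosen for these genes. Of the 413, 82 had neither gene (26, 0 and 56 on *vegfc* plate 1, *vegfc* plate 2 and the *pdgfra* plate) and 39 were immune cells. The part of this unlike make-up in the calls was not tested. The genes with the highest ratio among those found in at least 25% of the cells were a gene with identifier ENSDARG00000109310 (4.13, 6.59 and 4.66 on *vegfc* plate 1, *vegfc* plate 2 and the *pdgfra* plate), *vcanb* (3.15, 5.38 and 4.57) and the monocarboxylate transporter *SLC16A10* (2.31, 4.33 and 2.74). The other 6 of the 9 genes that met these terms were *GAPDHS*, *cbr1l*, *ROBO3*, *cycsb*, *ATP6V1G1* and *NFE2L2*, with ratios between 1.01 and 2.81. Symbols in capitals are as the identifier table lists these zebrafish genes. On the lower side 6 genes met the terms, among them *MVP*, *cbx7a*, *loxl2a*, *CAVIN2* and *FSCN1*. The results below compare the 61 high actinodin cells with the other 566 cells that had *pdgfra* or *lum* and under 500 counts of each actinodin, which include low actinodin cells.

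In that comparison 387 of 18529 genes (2.09%) were called higher and 1104 (5.96%) lower. The median ratio over all genes was -0.29, -0.45 and -0.05 on *vegfc* plate 1, *vegfc* plate 2 and the *pdgfra* plate. Of the genes called higher in all 413 cells, 120 were also called higher in the 61 (49.6% of the first set and 31.01% of the second), and 29 were called lower in both (40.3% of 72 and 2.63% of 1104). The 2 comparisons share cells on both sides. Dividing by median-of-ratios size factors instead moved the ratios of *vegfc* plates 1 and 2 by -0.13 and -0.15, changed no sign among the 1491 called genes and kept 83.7% of the higher and all 1104 lower calls.

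The genes with the highest ratios were matrix and cell surface genes, transcription factors and metabolic genes. *UCP1*, a mitochondrial uncoupling protein, led the order with log2 ratios of 6.60, 7.46 and 5.77 and a summed level of 944, 957 and 1117 CPM, against 4.80, 0.470 and 15.6 CPM in the other fibroblast-marker cells. It was found in 25 of 61 cells and not evenly, as its 6 cells on *vegfc* plate 1 ranged from 0 to 1694 counts with a median of 2.

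Matrix genes stood next. *ncana* had 531, 643 and 299.8 CPM, against 3.39, 9.90 and 1.90 CPM (5.997, 5.44 and 5.47). *vcanb*, a versican, was the most abundant of them and the only one of the 20 leading genes found in all 61 cells, with 76 to 4408 counts per cell (median 1321). Its level was 4379, 4279 and 4760 CPM, against 94.4, 61.7 and 180.1 CPM (5.46, 6.005 and 4.69). *FBLN1*, fibulin 1, was found in 60 of 61 cells at 2388, 1857 and 3259 CPM, against 80.9, 22.9 and 203.5 CPM (4.80, 6.06 and 3.97). *MXRA5*, a matrix remodelling associated protein, had ratios of 4.34, 4.44 and 3.98. All these matrix genes but *ncana* were found in over 90% of the high actinodin cells.

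Cell surface and signalling genes followed. *ADGRG6*, an adhesion G protein-coupled receptor, was found in 55 of 61 cells at 794, 667 and 708 CPM, against 7.35, 14.5 and 14.6 CPM (6.02, 5.11 and 5.19). *PTGER3*, a prostaglandin E receptor, was found in 38 of 61 cells, with ratios of 4.54, 4.43 and 4.64. *ECRG4*, which encodes the secreted peptide augurin, was found in 50 of 61 cells, with ratios of 6.19, 7.01 and 4.46. The ratio of the last gene was lowest on the *pdgfra* plate, where its level in the other cells was 18.1 CPM, against 3.71 and 2.78 CPM on the *vegfc* plates.

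Among the remaining leading genes were *colgalt2b* (5.31, 5.10 and 4.81), *HOXB13* (6.42, 5.74 and 5.08), *QDPR* with identifier ENSDARG00000040190 (5.40, 7.003 and 4.33), the zinc finger factor *ZIC5* (5.92, 4.28 and 4.24), *msx2b* (4.44, 5.87 and 4.11), the aminoacylase *acy3.2* (5.36, 5.67 and 4.298), the tensin *tns2b* (4.70, 4.11 and 3.99), *si:ch211-76l23.4* (5.33, 6.41 and 5.70) and a gene with identifier ENSDARG00000109310 (5.86, 6.12 and 4.24). A pair of identifiers named *vap* were both among them (6.60, 6.84 and 4.69, and 5.24, 4.71 and 4.16). The split of reads between such copies is uncertain.

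Lower in the high actinodin cells were genes that trunk fibroblasts carry. *ALDH1A2*, which makes retinoic acid, had 8.73, 1.69 and 18.4 CPM, against 367.6, 281.6 and 422 CPM (log2 ratios -4.76, -5.42 and -4.19), and was found in 1 of 61 cells, against 37.99% of the 566. *RDH10*, a retinol dehydrogenase of the same pathway, had ratios of -4.67, -5.17 and -3.36 and was found in 1 of 61 cells, against 38.7% of the 566. *TCF15*, a factor of somite derivatives, was found in 2 of 61 cells, against 42.8% of the 566 (-4.35, -4.80 and -3.87). *CILP*, a cartilage intermediate layer protein, was found in 0 of 11 cells of the *vegfc* plates and 13 of 50 of the *pdgfra* plate, against 385 of 566 other cells (-5.10, -6.36 and -3.64). The other genes of this order were *CAVIN2*, *loxl2a*, *pdgfrl*, *zgc:66433*, *EBF3* and *fgl1*, with ratios between -5.94 and -3.11. For all 10 genes the ratio nearest to 0 was that of the *pdgfra* plate.

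**Figure D2:**
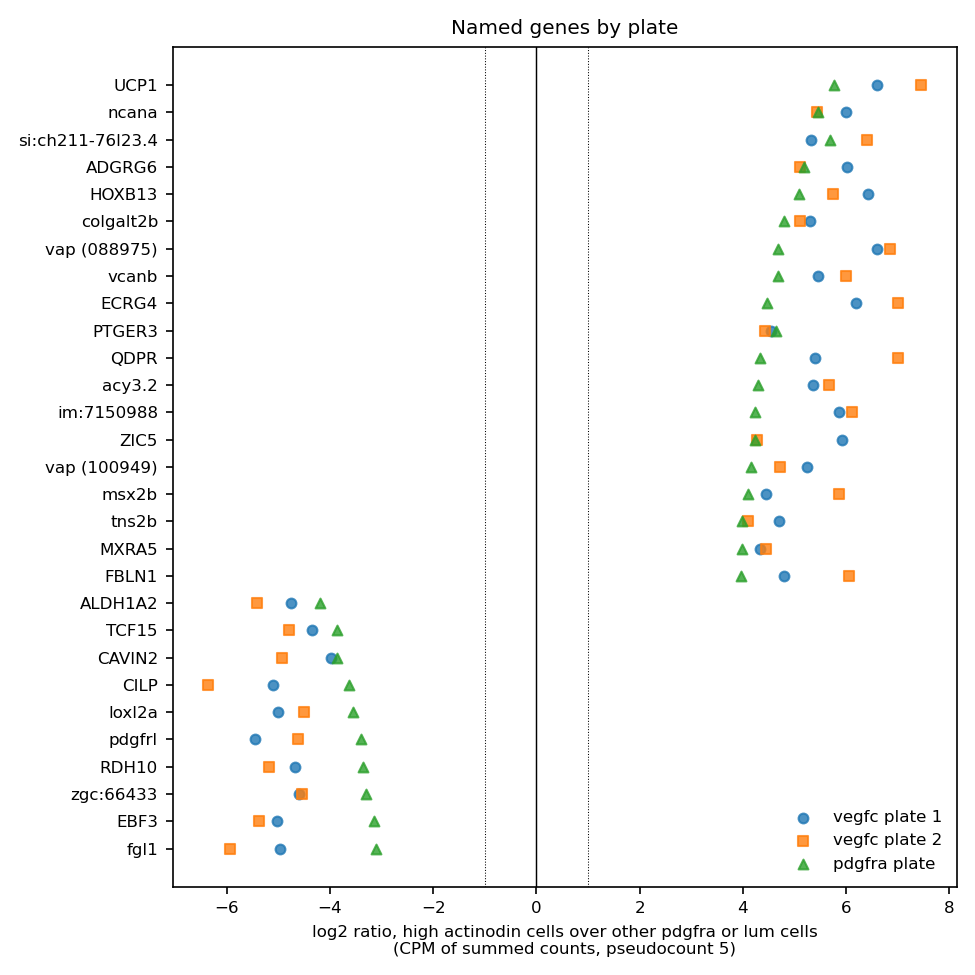
Log2 ratios of summed counts in high actinodin cells over other cells with *pdgfra* or *lum* (x axis, pseudocount 5 CPM) for 19 of the 20 highest and the 10 lowest named genes (y axis), with a symbol per plate and dotted lines at -1 and 1. Every gene drawn lies on the same side of 0 in all 3 plates, and digits in brackets tell apart the identifiers that share the symbol *vap*.

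Genes were also read by lists of their roles, and each count of a list stands beside 2.09% of all genes called higher and 5.96% called lower. Of 12 measured genes of actinotrichia and the fin fold matrix, 4 were called higher (*ncana*, *vcanb*, *FBLN1* and the hemicentin *hmcn2*) and 0 lower, with a median log2 ratio of 0.04, beside -0.24 over all genes. *ncana* is among the markers named with the cells, so its call is no independent support. The third actinodin, *and3*, had 0 counts in each of the 61 cells, which allows a share of up to 4.92% of cells. Of 20 collagen chains, 1 was called higher and 7 lower (median -1.34). The higher one was *col1a1a*, at 18629, 18379 and 21293 CPM in the order of plates above.

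The collagen I chains moved in opposite directions. Counts of *col1a1a* had medians of 7892, 7155 and 7316.5 in high actinodin cells of *vegfc* plate 1, *vegfc* plate 2 and the *pdgfra* plate, against 2859, 1209 and 2716 in the other cells, with log2 ratios of 1.06, 2.1003 and 1.103. The counts of *col1a2* had medians of 121.5, 20 and 442.5, against 2915, 1509 and 3323, with ratios of -2.81, -4.24 and -2.05. Within single cells, *col1a1a* ranged from 1010 to 9373 counts and *col1a2* from 13 to 5463 counts over the 61 cells. The call of *col1a1a* was lost with median-of-ratios size factors, while that of *col1a2* was kept. *COL5A1* (-2.89, -1.94 and -1.83), *COL4A1* (-4.02, -4.47 and -2.83), *COL4A2*, *col6a2*, *col7a1* and *col9a3* were the other chains called lower.

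Of 25 genes of collagen modification and secretion, 4 were called higher and 2 lower (median 0.79). Higher were *colgalt2b*, the coat proteins of secretory vesicles *sec23a* (1.86, 1.505 and 1.34) and *SEC24D* (1.81, 2.73 and 1.86), and *CREB3L1* (2.32, 3.31 and 1.65), a transcription factor of the secretory pathway found in 50 of 61 cells. Lower were the lysyl oxidases *LOXL1* and *loxl2a*. *colgalt2b* too is among the markers named with the cells. The heparan sulfate proteoglycan *gpc1b* had ratios of 3.63, 4.67 and 5.06 and was found in 48 of 61 cells. It was, with *HYAL1* and *XYLT1*, 1 of 3 genes called higher among 27 of hyaluronan and proteoglycans, where 5 were lower, among them *PRELP*, *epyc* and *omd*, beside 2.09% higher and 5.96% lower over all genes. The call of *XYLT1* was lost with median-of-ratios size factors.

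Of 33 transcription factors of the fin fold list, 9 were called higher (among them *msx1a*, *msx1b*, *msx2b*, *msx3*, *twist3*, *TFAP2C*, *PAX9* and *snai1a*) and 4 lower (*twist2*, *meis1a*, *meis3* and *pbx1a*). All 4 measured Msx genes were thus higher. *msx2b* was found in 57 of 61 cells at 1393, 1117 and 900 CPM, against 59.3, 14.2 and 47.6 CPM. *msx1b* was found in 47 of 50 cells of the *pdgfra* plate and in 2 of 6 and 2 of 5 cells of the *vegfc* plates, with summed levels of 255.99, 767 and 881 CPM on *vegfc* plate 1, *vegfc* plate 2 and the *pdgfra* plate, against 43.2, 40.8 and 77.1 CPM. *msx3* was found in 48 of 61 cells (3.85, 3.13 and 2.99) and *twist3* in 59 of 61 (3.08, 3.05 and 1.42). Sp9, a factor of the apical fold, was not called: *sp9* had ratios of 4.72, -0.04 and 4.95 and was found in 21 of 61 high actinodin cells and 0 of 566 others.

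Hox genes were counted by group number, and the groups were not compared by a test. Of 14 measured genes listed for groups 9 to 13, counting *eve1*, 4 were called higher (*hoxc12b*, *hoxa13a*, *hoxa13b* and *eve1*) and 2 lower (*hoxc9a* and *hoxd9a*). *HOXB13*, a leading higher gene above, was not among these 14, so the count is not a full tally of posterior Hox genes. Of 10 genes of groups 1 to 8, 0 were higher and 1, *hoxb8b*, lower, beside 2.09% higher and 5.96% lower over all genes. *hoxa13a* and *eve1* are among the markers named with the cells. *hoxa13b* was found in 55 of 61 cells at 553, 760 and 651 CPM, against 28.1, 77.1 and 35.3 CPM (4.08, 3.22 and 4.03). *hoxd13a* was not called (0.46, 4.21 and 0.54) and was found in 15 of 61 cells.

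Signalling genes were counted beside 2.09% higher and 5.96% lower over all genes. Of 45 Wnt genes 2 were higher (*LEF1* and *notum1b*) and 11 lower, of 34 BMP and TGF-beta genes 0 and 8, of 15 Hedgehog genes 0 and 2, and of 22 FGF genes 1 and 1, so that few calls stand behind the last pair of lists. *LEF1*, a nuclear factor of Wnt signalling, was found in 35 of 61 cells (2.68, 3.03 and 1.55). *FGF4* was called from 5 cells of 61 and 0 of 566. The Hedgehog-binding *HHIP* was lower (-5.74, -5.79 and -2.02) and was found in 4 of 61 cells. Of 9 retinoic acid genes, *CYP26A1*, which degrades retinoic acid, was higher (2.58, 4.59 and 2.98), and *ALDH1A2* and the receptor *raraa* were lower. The summed counts of *CYP26A1* came from 9 of 61 cells. On each *vegfc* plate nearly all came from a single cell, with 600 counts on plate 1 and 815 on plate 2.

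Of 27 adhesion genes 1 (*ITGAV*) was higher and 10 lower, and of 43 guidance genes 2 (*SEMA3E* and *ROBO3*) were higher and 14 lower, where over all genes 2.09% were higher and 5.96% lower. The call of *SEMA3E* was lost with median-of-ratios size factors. *ROBO3*, a receptor of the Robo family, was found in 53 of 61 cells (2.64, 2.51 and 3.57). Of 22 matrix proteases and inhibitors 0 were higher and 6 lower. *VEGFC* (-3.71, -3.95 and -1.88) and *CCBE1* (-4.30, -5.01 and -2.08), the lymphangiogenic factor and its cofactor, were lower and each was found in 1 of 61 cells. The *vegfc* plates came from a sort that used the *vegfc* reporter. There, 48 and 39 of the other cells had 500 or more counts of the reporter eGFP, against 0 high actinodin cells. Of 32 cell cycle genes 0 were higher and 15 lower (median -2.26), and *mki67*, a marker of cycling cells that was not itself called, was found in 3 of 61 cells, against 22.97% of the others.

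Markers of other cell types were low for most lists, with the tendon list as the exception. The fibroblast genes *pdgfra* or *lum* were found in 57 of 61 high actinodin cells, *dcn* in 58 and *col1a1a* in 61. Of 7 markers of the horizontal myoseptum, 6 were lower (median -4.66), and *en1b* was found in 2 of 61 cells, at 899 and 43 counts. The cell with 899 counts also had 4677 counts of *col1a2*, 65 of *mki67*, 76 of *vcanb* and 7 of *colgalt2b*, unlike most high actinodin cells. Whether its well held more than 1 cell was not tested. Of 19 epidermal markers 0 were called, *epcam* and *krt5* reached 20 counts in 0 of 61 cells, and *krt4* did in 5, of which 4 were on *vegfc* plate 1. The summed level of the 19 markers had a median of 301.6 CPM in the high actinodin cells of that plate, against 260.5 CPM in its other fibroblast-marker cells. Of 4 endothelial markers *kdrl* was lower, and of 5 myeloid markers 0 were called. *hand2*, a gene of the pectoral fin bud, was found in 2 of 61 cells. By plate the summed level of these lists and of those of muscle, neural, pigment, notochord and cartilage cells had medians of 0 to 301.6 CPM in high actinodin cells.

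The 3 measured tendon markers had summed levels with medians of 2009.8, 3784 and 1279 CPM in high actinodin cells of *vegfc* plate 1, *vegfc* plate 2 and the *pdgfra* plate, against 1176, 1338 and 1809.5 CPM in the other fibroblast-marker cells, and 0 of them were called. Most of this was *thbs4b*, a thrombospondin of the matrix, which was found in 43 of 61 cells with log2 ratios of 1.13, 2.29 and 0.06. *egr1*, a transcription factor, was found in 38 of 61 cells with ratios of -1.498, -1.30 and -0.72. *tnmd*, the tenomodulin gene, was found in 6 of 61 cells (-2.11, 3.12 and -0.90). The part of tendon genes in the results was not tested.

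The reporter sequence listed as eGFP had medians of 49.5, 29 and 50 counts in high actinodin cells of *vegfc* plate 1, *vegfc* plate 2 and the *pdgfra* plate, against 79, 25 and 61 counts, and reached 500 counts in 0 of the 11 cells of the *vegfc* plates, against 48 and 39 of the other cells there. mCherry had 0 counts in all 61 cells.

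Several genes of tyrosine breakdown and several of the cofactor tetrahydrobiopterin were higher. A list of genes of tyrosine breakdown, with the synthesis and recycling of tetrahydrobiopterin, was drawn up after *QDPR*, which recycles that cofactor, had been seen among the leading genes. Of its 8 measured symbols 7 were called higher (*PCBD1*, *GCH1*, *HPD*, *TTC36*, *HGD*, *GSTZ1* and *FAH*), with a median of 3.77, and 0 lower. Being chosen on these values, the list is no independent evidence of its direction. The symbol *QDPR* had 3 identifiers and is counted apart from the 8 symbols. The remaining symbol, *TAT*, reached 20 counts in 0 of 61 cells, which allows a share of up to 4.92%.

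*HPD*, which makes homogentisate, was found in 56 of 61 cells at 1777, 1691 and 2037 CPM, against 11.4, 25.8 and 139.8 CPM (6.76, 5.78 and 3.82). *HGD*, the homogentisate dioxygenase, was found in all 61 cells at 2641, 2594 and 3166 CPM, but also in 55.2, 64.8 and 88.3% of the other cells (3.79, 3.36 and 2.29). *GSTZ1* (4.21, 4.07 and 2.85) and *FAH* (3.71, 3.93 and 2.21), the following enzymes, had ratios in a like range. *PCBD1* (3.96, 3.35 and 2.08) and *GCH1* (3.40, 4.92 and 3.84), of the tetrahydrobiopterin part of the list, were found in 51 and 42 of 61 cells. In every plate the high actinodin cells had at least 4 times the level of the others for each of the 7 genes. Of 11 identifiers of this list and *QDPR*, 57 of 61 high actinodin cells had at least 5, and a cell had 1 to 9 of them (median 8).

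**Figure D3:**
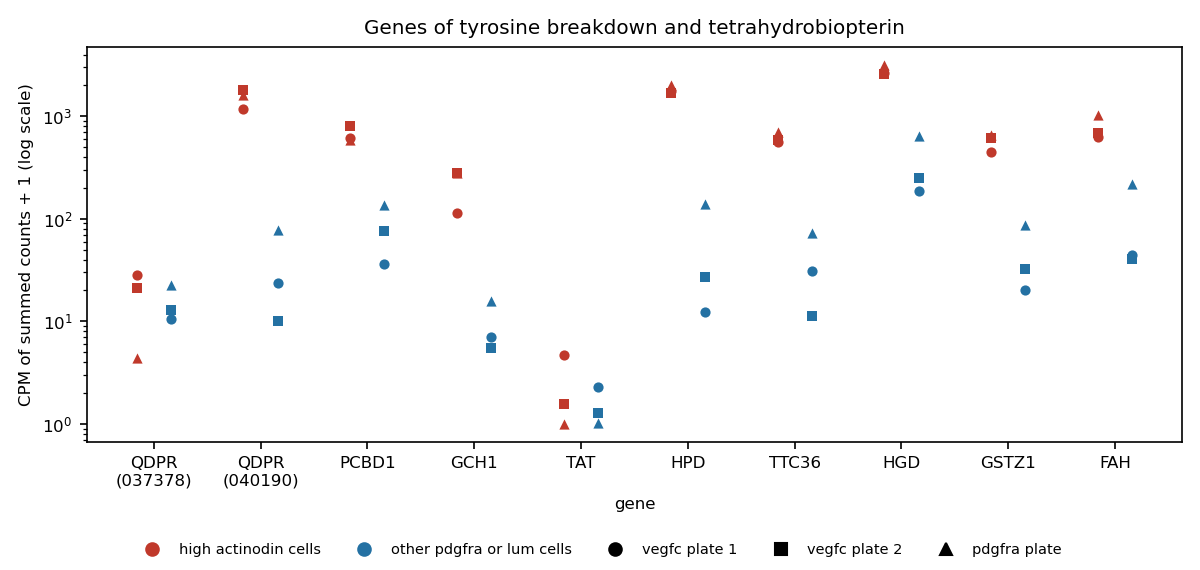
Level of each gene of tyrosine breakdown and of tetrahydrobiopterin synthesis and recycling in high actinodin cells (red, left) and in other cells with *pdgfra* or *lum* (blue, right), as CPM of summed counts plus 1 on a log scale, with a symbol per plate. The red symbols lie above the blue ones in all plates for 7 of 8 symbols and for 1 of 3 *QDPR* identifiers, while *TAT* lies at the bottom for both groups. The *QDPR* identifier at 0 counts in all cells compared is not drawn.

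The high actinodin cells were not uniform. Of 61 cells, 40 had both *hoxa13a* and *hoxa13b*, 15 had *hoxa13b* only, 5 had *hoxa13a* only and 1 had neither. All 19 cells with *eve1* and all 28 cells with *ncana* also had *hoxa13a*, as did 36 of the 37 cells with *HOXB13*. The ratio of both actinodins followed the same line. Of the 45 cells with *hoxa13a*, 41 had more *and1* than *and2*, and of the 16 without it 15 had more *and2*. Medians were 3240 counts of *and1* and 2765 of *and2* in cells with *hoxa13a*, against 1466.5 and 2326.5 in those without. Both groups had like depths, with medians of 318453 and 348948 gene counts.

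The order was present in each plate. On *vegfc* plate 1 the 5 cells with *hoxa13a* all had more *and1* and the 1 cell without had 1810 counts of *and1* and 2317 of *and2*. On *vegfc* plate 2 the 4 cells with it had more *and1*, and the 1 cell without had 1095 and 2439 counts. On the *pdgfra* plate 32 of 36 cells with it had more *and1*, against 1 of 14 without. Spearman's rho over the 50 cells of the *pdgfra* plate was 0.64 between the log2 ratio of *and1* to *and2* and *hoxa13a* in CPM. It was 0.77 between *hoxa13a* and *HOXB13*, 0.67 between *hoxa13a* and *ncana*, and 0.08 between *hoxa13a* and *hoxa13b*. These values describe cells of a single plate that share library and background.

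**Figure D4:**
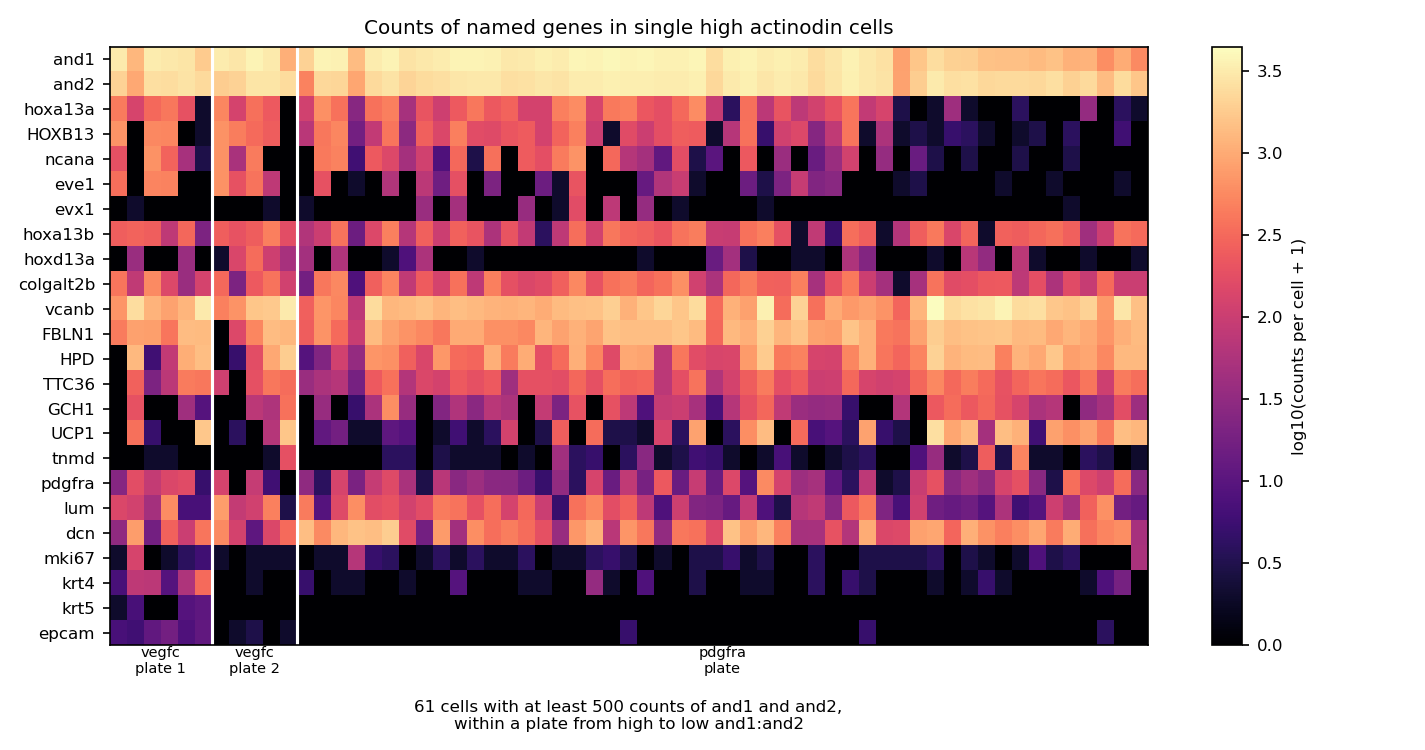
Counts of named genes (rows, as log10 of counts plus 1) in each of the 61 high actinodin cells (columns), set within each plate from the highest to the lowest ratio of *and1* to *and2*. *hoxa13a*, *HOXB13*, *ncana* and *eve1* are seen mainly at the left of each plate, *UCP1* mainly at the right, and *hoxa13b*, *colgalt2b* and *vcanb* across.

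Other genes were searched on the *pdgfra* plate for the difference between the 36 cells with *hoxa13a* and the 14 cells without it, so the leading genes there were chosen by that difference. With *hoxa13a* went *HOXB13* (80.6% of cells, against 7.14%), the matricellular *CCN2* (91.7%, against 21.4%), *ANGPTL6* (75%, against 7.14%), the small leucine-rich proteoglycan *OGN* (80.6%, against 14.3%), the lysyl oxidase *LOXL2* (72.2%, against 7.14%), the thrombospondin *thbs4b* (88.9%, against 28.6%) and the prolyl hydroxylase *P4HA1* (72.2%, against 14.3%). *ncana* was found in 58.3% of cells with *hoxa13a* and *eve1* in 33.3%, against 0 of 14 for both. A pair of identifiers named *HOXC13* followed the same pattern (75%, against 7.14%, and 77.8%, against 14.3%).

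The cells without *hoxa13a* had other genes. *LRRC58* and *ccdc80l1* were found in 14 of these 14 cells, against 27.8 and 33.3% of the cells with *hoxa13a* for each in turn. *DHRS3*, a retinaldehyde reductase, was found in 5.56% of cells with *hoxa13a*, against 71.4% of cells without. The receptor *FGFR2* was found in 13.9%, against 78.6%, *PAX9* in 13.9%, against 71.4%, *TBX3*, a T-box factor, in 2.78%, against 57.1%, and *UCP1* in 30.6%, against 71.4%. Shares of *hoxa13b* (86.1%, against 92.9%) and *colgalt2b* (94.4%, against 92.9%) differed little.

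The 11 cells of the *vegfc* plates were not used in that search. Of their 9 cells with *hoxa13a*, 7 had *HOXB13*, 7 *CCN2*, 6 *ANGPTL6*, 6 *OGN*, 7 *LOXL2*, 7 *thbs4b* and 7 *ncana*, and the 2 cells without *hoxa13a* had 0 of these 7 genes at 20 counts. Of all 20 leading genes of that side, 14 were found in 0 and 6 in 1 of the 2 cells, and 18 had the higher share in the 9 cells with *hoxa13a*. Of the 20 leading genes of the other side, 15 had the lower and 4 the higher share in the 9 cells, and 4 were found in 0 of the 2 cells. Identifiers that share a name, such as the pair named *HOXC13*, are counted apart. The same tally over all genes was not made, so no background share stands beside these counts. *RARG*, a retinoic acid receptor, was found in all 9, with 43 to 566 counts, against 0 and 7 counts in the 2 cells. The 2 cells without *hoxa13a* had 1630 and 1694 counts of *UCP1* (4316 and 4156 CPM), against 0 to 1001 CPM in the 9 cells with it. They had 51 or more counts of *DHRS3*, against 0 or 1, and both had *LRRC58*, *ccdc80l1*, *FGFR2*, *KLF12* and *PAX9*. *TBX3* and *ACTL6A*, which marked such cells on the *pdgfra* plate, had at most 1 count in them. With 2 cells this is a description, and *FGFR2* and *PAX9* were also found in 3 of the 9 cells each.

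**Figure D5:**
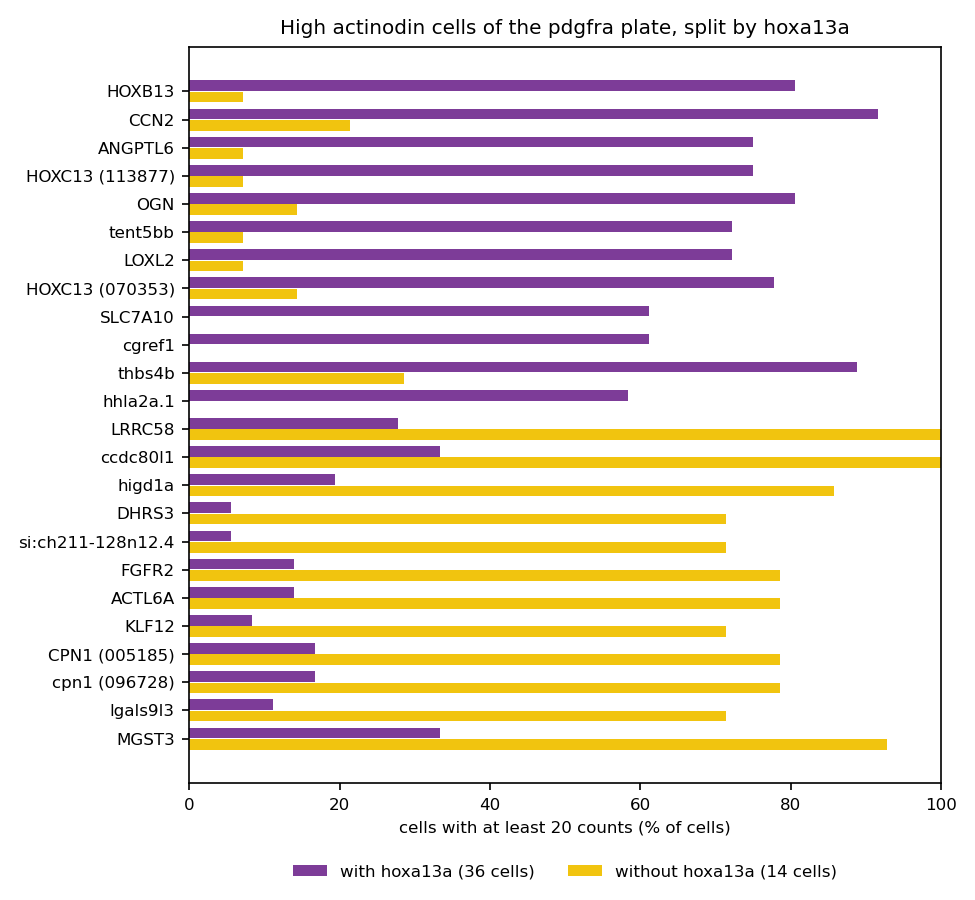
Share of cells with at least 20 counts (x axis, %) of 24 genes (y axis) in the high actinodin cells of the *pdgfra* plate, for 36 cells with *hoxa13a* (purple, above) and 14 cells without it (yellow, below). The upper 12 genes were chosen for a higher and the lower 12 for a lower share in cells with *hoxa13a*, and digits in brackets tell apart identifiers that share a name.

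The 11 high actinodin cells of the *vegfc* plates show the range by cell. *hoxa13a* had 425.8, 786, 1301, 1800, 2.45 and 369.2 CPM in the 6 cells of *vegfc* plate 1 and 1075, 528, 519, 1357 and 0 CPM in the 5 cells of *vegfc* plate 2. *eve1* had 0, 1294, 1559, 1397, 0 and 0 CPM in the same 6 cells and 1159, 177.6, 791, 1670.5 and 0 CPM in the same 5. The 4 cells with no count of *eve1* were those lowest in *hoxa13a* on their plates.

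Cells with 1 of both actinodins were also present. With 500 or more counts of *and1* but not of *and2*, and under 20 counts of *cldnb*, there were 5, 7 and 7 cells on *vegfc* plate 1, *vegfc* plate 2 and the *pdgfra* plate, in which *hoxa13a* was found in 3, 6 and 5, *hoxa13b* in 5, 6 and 4 and *HOXB13* in 5, 5 and 4. With *and2* only there were 2, 2 and 15 cells, in which *vcanb* was found in 2, 2 and 13, *HPD* in 2, 2 and 12, *FGFR2* in 2, 2 and 11 and *hoxa13a* in 0, 2 and 2. Of these cells, 9 with *and1* and 16 with *and2* were low actinodin cells by the rule. The *and2* cells of the *pdgfra* plate also held 5 with *tnmd*. Epithelial genes were present too. Among the *and2* cells *krt4* was found in 1, 2 and 1 and *epcam* in 0, 0 and 1, with up to 2235 and 180 counts on the *pdgfra* plate. Among the *and1* cells *krt4* was found in 3, 0 and 0 and *epcam* in 0, 0 and 0. On *vegfc* plate 1, 1 cell with both actinodins had 458 counts of *cldnb* and was left out by the rule. It had 2523 counts of *and1*, 1574 of *and2*, 1173 of *and3*, 2900 of the keratin gene *krt4*, 751 of *epcam* and 1 of *hoxa13a*.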

How the data were processed

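Counts, in reads per gene and cell, were deposited by the authors without normalization. The methods state trimming with trim galore, alignment to GRCz11 with TopHat2 and Bowtie2, removal of doublets among the reads with samtools, and counting with featureCounts of Subread. The tools' versions stand in the study's reporting summary, identifiers are those of ENSEMBL and the release used for counting is not given in the sources used here. If that removal dropped reads with the same start, counts of short, abundant transcripts such as the actinodins would be limited by their length. Whether it did is not stated. The 32057 gene rows were used, and 92 spike-ins and 2 reporters stayed out of totals. Symbols came from an identifier table (28988 genes) and from 1054 pairs in the study's source data. Of 773 genes on lists, 497 had an identifier, and the others were not analysed. The comparisons used 18529 genes, each with a sum of 300 counts or more and at least 1 count in 3 or more cells. Cells had 50045 to 782140 gene counts (median 298220). The 1109 cells fell on *vegfc* plate 1 (367), *vegfc* plate 2 (377) and the *pdgfra* plate (365). The rule took 56, 11 and 346 of them, and its comparison cells were 92, 142 and 9 (243 in all). The other fibroblast-marker cells were 165, 162 and 239, of which 23, 3 and 223 were low actinodin cells, and the immune-marker cells 126, 50 and 19 (195 in all). No cell was removed and no doublet caller was run, each cell having been sorted into its own well and the authors having set an upper limit on genes. Barcodes are wells, so none is shared between plates.

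For each plate with at least 5 cells of the class, counts were summed over cells, scaled to CPM and compared as log2 ratios with a pseudocount of 5 CPM. A ratio of at least 1 in every plate was called higher and -1 or lower called lower. Named genes were the 20 highest and 10 lowest by the plate nearest to 0, among genes found at 20 counts in at least 25% of cells of the class (for lower ones, of the comparison cells) of each plate, without the genes of the rule. The members, the lists and the rules were chosen with earlier results of these data known. The limit of 500 counts and the list of tyrosine breakdown and tetrahydrobiopterin were chosen after the counts had been seen. A few genes that met these terms or stood on the lists are not reported here. The code for the ratios was run on simulated counts with planted changes. Each simulated cell followed the comparison cells of its plate, without differences in cell make-up, so this checks the code and not the calls. Shares have exact 95% Clopper-Pearson intervals. Where a share of 0 is given with an upper limit only, that limit is 3 cells of the total. Alternatives varied the limits on counts, the comparison cells, depth (thinning to 50000 counts), scaling, pseudocount and the plates used. Python 3.11.15, numpy 2.4.6, pandas 2.3.3, scipy 1.17.1 and matplotlib 3.10.9 were used.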

Additional observations from a re-analysis of the deposited data

How the results depend on the processing

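The numbers of called genes, given here as a percent of 18529 genes, moved more than the shares of markers. For all 413 cells, 0.103% of genes were lower with a limit of 10 counts of both actinodins, 1.38% with 50 counts and 1.17% with limits on *epcam*, *krt4* and *krt5*. Comparison cells with both *pdgfra* and *lum* gave 4.67% higher and 3.83% lower genes, and those without *en1a* and *en1b* 2.41 and 3.88%, both over 2 plates. A pseudocount of 1 CPM gave 2.43 and 0.907%, of 20 CPM 0.394 and 0.0648%, and a log2 limit of 2 gave 0.270 and 0.0108%. Counted at 1 read, *hoxa13a*, *eve1*, *ncana* and *colgalt2b* were in 65.9, 22.8, 36.3 and 75.5% of the 413 cells, and *colgalt2b* at 50 reads in 16.9%. Log2 ratios turned to -0.15 for *NFE2L2* with a limit of 10 counts, to -0.68 for *GAPDHS* with 50 counts and to -0.41 for *ROBO3* with the epithelial limits. The cause was not tested.

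For the high actinodin cells, a limit of 300 counts gave 2.55% lower genes and shares of 55.8% for *hoxa13a*, 32.6% for *ncana* and 72.1% for *colgalt2b*, which reached 100% with a limit of 1000. The epithelial limits gave 3.40% higher and 8.96% lower genes, over 2 plates. A pseudocount of 1 CPM gave 11.4% lower genes, of 20 CPM 2.099%, and a log2 limit of 2 gave 0.761% higher and 1.47% lower. Counted at 1 read, the 4 markers were in 86.9, 52.5, 67.2 and 100% of cells, and thinning gave 81.9% for *colgalt2b*. Of 480 log2 ratios of the 30 named genes under the alternatives, 0 reversed, 71 moved by more than the spread between plates and 2 were under 1 in size. For the 15 genes named in all 413 cells, 3 ratios reversed (above), 14 moved and 62 (25.8%) were under 1 in size.

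Leaving out a plate in turn gave 67 to 402 cells, 2.22 to 5.22% higher and 0.804 to 3.46% lower genes for all cells, with shares of 13.4 to 22.4% (*hoxa13a*), 3.98 to 10.4% (*eve1*), 6.97 to 11.9% (*ncana*) and 21.6 to 23.9% (*colgalt2b*). For high actinodin cells it gave 11 to 56 cells, 3.14 to 4.23% higher and 7.88 to 17.1% lower genes, and shares of 72.7 to 81.8%, 26.8 to 63.6%, 43.6 to 63.6% and 94.5 to 100%. A call in every plate asks less of fewer plates. No paired analysis was possible because the labels pair no cells or plates and no test was run. The 11 cells of the *vegfc* plates limit every call there, and the *pdgfra:mCit* line has 1 plate and no replicate.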
